A study of Mus musculus with 2 samples.

Results

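The genes described here are 43 components of the transforming growth factor beta (TGF-β) and bone morphogenetic protein (BMP) pathway. They were taken by gene symbol from a table of 49492 genes measured in mammary basal cells. They comprised 10 ligands or ligand subunits, 11 receptors, 7 antagonists, 8 Smads, 3 Id genes and 4 latent TGF-β binding proteins. All 43 were found, and 42 of them had at least 20 counts summed over both libraries, the minimum used for a fold change. The remaining one, *Bmpr1b*, had 18.

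The study sequenced RNA of basal cells (lin-CD24+CD29hi) sorted by flow cytometry from wild-type mice. The methods gave adult females of 8 to 10 weeks. The CL basal group came from mice injected with clodronate liposomes, lipid vesicles that kill the macrophages that take them up, and the Ctrl basal group from control mice. The sample labels gave the control treatment as none, while the series design gave saline, and the methods described 3 intraperitoneal injections of liposomes. Both groups were labelled day 7, and the sources did not give how many animals stood behind a library.

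There was 1 library per group. No difference described here therefore had a replicate check, and intervals covered counting error only. The Ctrl basal library held 37846008 counts and the CL basal library 38962512, a ratio of 1.03. Markers of basal and myoepithelial cells were abundant and nearly level, with summed levels of 20780 TPM (counts per exonic length, scaled to the same total in each library) in Ctrl basal and 22370 in CL basal over 12 genes, among them *Krt14* (210758 and 232845 counts). Luminal markers were not level. All 16 had a lower scaled count in CL basal, 15 of them by at least 1.5-fold, and their summed level was 4105 TPM in CL basal and 7261 in Ctrl basal. Even numbers were in excess among low counts, at 67.9% of Ctrl basal values between 1 and 20, as when each mate of a pair is counted on its own. Intervals from halved counts are therefore given where they differ in whether they hold 0.

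TGF-β family ligands are secreted dimers that bring together type I and type II receptor kinases at the cell surface. The type I receptor then phosphorylates receptor Smads, which join Smad4 and enter the nucleus. TGF-β and activin signal mainly through Smad2 and Smad3, and BMPs through Smad1, Smad5 and Smad9. TGF-β is secreted in a latent form that latent TGF-β binding proteins anchor in the matrix, and antagonists such as follistatin and noggin trap activins and BMPs. In the mammary gland TGF-β is known as a restraint on ductal growth, and BMP signals are known to act between stroma and epithelium.

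The pathway genes were close to level between the libraries. With 2-fold as the threshold, 0 of the 42 tested members passed on the lower side and 0 on the higher side, against a background of 4.79% of all 17356 tested genes lower and 2.07% higher. At 1.5-fold, 4 members (9.52%) were lower, with 11.7% of all tested genes lower, and 2 members (4.76%) were higher, with 6.33% of all tested genes higher. Both shares were below those of all tested genes, many of which had fewer counts than most members, so depth was not matched. By at least 1.5-fold, 2.29% of genes with 1000 to 9999 counts were lower and 1.16% higher. At 100 to 999 counts the shares were 12.2% and 5.02%, and at 20 to 99 counts 28.4% and 18.2%. From 10000 counts they were 1.93% and 0.598%. The 4 lower members were *Bmp6*, *Ltbp1*, *Inhbb* and *Inhba*, and the 2 higher members were *Bmp5* and *Grem1*. The median log2 fold change (CL basal over Ctrl basal, called the log2 ratio from here on) was 0.08 over the members and -0.01 over all tested genes.

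Most members had many counts, which bears on how they compare with the background. The 30 members with at least 1000 counts over both libraries had a median of 0.13, against 0.04 for all 7097 genes of that depth. Of these 30, 21 (70.0%) lay within 0.25 of 0 on the log2 scale, and of all genes of that depth 71.3% did. Lower by at least 1.5-fold were 2 of the 30 (6.67%), *Inhbb* and *Ltbp1*, against 2.21% of all genes of that depth. From halved counts, the exact 95% binomial interval held 0 for 21 of the 42 members, lay above 0 for 12 and lay below 0 for 9. It lay above 0 for 28.6% of the members and 18.5% of all tested genes, and below 0 for 21.4% and 17.4%, and it held 0 for 64.0% of all tested genes. Depth bears on these shares, since 30 of 42 members and 7097 of 17356 genes had at least 1000 counts.

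**Figure D1:**
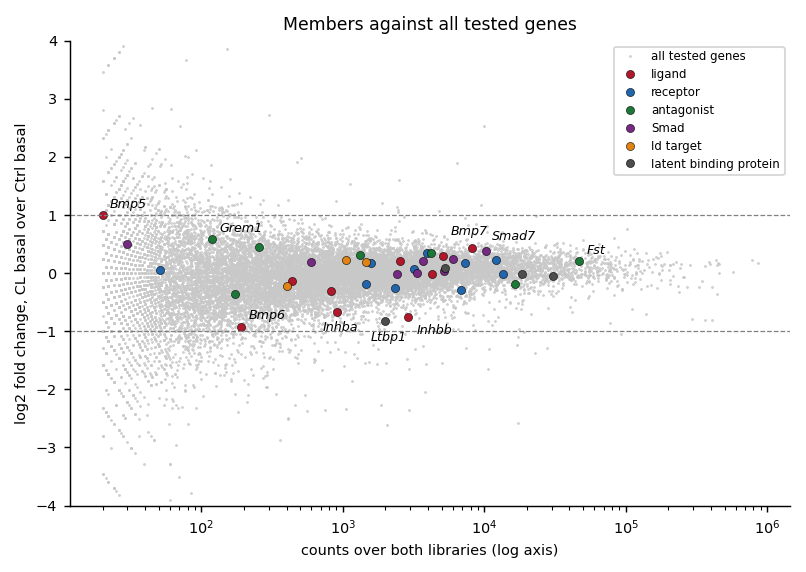
Log2 fold change of CL basal over Ctrl basal (vertical axis) against counts over both libraries (horizontal log axis), for all 17356 tested genes in grey and the 42 tested members coloured by role. Dashed lines mark 2-fold, and 8 grey genes lie beyond the vertical axis. No tested member lies beyond the dashed lines, and *Ltbp1* and *Inhbb* lie lowest among members with at least 1000 counts.

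The promoters of *Bmp6*, *Inhba*, *Inhbb* and *Ltbp1* are printed because these are the 4 members that were lower by at least 1.5-fold. This threshold was not planned beforehand. Each line holds the 250 bases before a RefSeq start (GRCm38.p6), 5′ to 3′ on the strand of the gene, with GTCTG or its reverse complement CAGAC in capitals. They lie on the plus strand at chr13:38345466-38345715 for *Bmp6* and at chr13:16011601-16011850 for *Inhba*. The *Inhbb* window lies at chr1:119422249-119422498 on the minus strand. The *Ltbp1* windows lie on the plus strand, at chr17:75005279-75005528 for the upstream start and chr17:75178531-75178780 for the downstream start, the latter inside the gene.
Bmp6: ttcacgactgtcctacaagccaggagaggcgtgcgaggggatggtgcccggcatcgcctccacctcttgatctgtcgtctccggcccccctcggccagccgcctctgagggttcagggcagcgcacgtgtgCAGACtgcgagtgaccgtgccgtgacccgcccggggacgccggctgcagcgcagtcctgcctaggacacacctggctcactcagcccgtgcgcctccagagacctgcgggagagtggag
Inhba: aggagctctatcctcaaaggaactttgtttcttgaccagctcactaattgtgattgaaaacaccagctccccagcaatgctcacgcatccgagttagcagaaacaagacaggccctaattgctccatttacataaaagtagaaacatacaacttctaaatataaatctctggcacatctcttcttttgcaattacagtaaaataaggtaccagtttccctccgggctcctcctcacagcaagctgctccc
Inhbb: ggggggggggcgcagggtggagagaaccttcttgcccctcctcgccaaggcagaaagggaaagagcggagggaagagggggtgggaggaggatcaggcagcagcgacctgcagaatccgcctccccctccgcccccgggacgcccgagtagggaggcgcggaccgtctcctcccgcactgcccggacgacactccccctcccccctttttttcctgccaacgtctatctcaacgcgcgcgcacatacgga
Ltbp1, upstream start: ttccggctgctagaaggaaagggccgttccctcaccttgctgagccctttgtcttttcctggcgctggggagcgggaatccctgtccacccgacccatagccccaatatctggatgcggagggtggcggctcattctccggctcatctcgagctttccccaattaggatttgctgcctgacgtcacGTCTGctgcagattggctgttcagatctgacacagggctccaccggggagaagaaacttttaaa
Ltbp1, downstream start: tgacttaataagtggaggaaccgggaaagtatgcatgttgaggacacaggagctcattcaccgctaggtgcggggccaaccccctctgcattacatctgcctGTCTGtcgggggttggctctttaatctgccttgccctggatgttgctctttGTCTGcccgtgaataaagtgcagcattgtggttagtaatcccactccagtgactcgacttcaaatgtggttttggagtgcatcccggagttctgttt

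Smad proteins are known to bind sequences with a GTCT core, and BMP Smads also bind the GC-rich sequence GGCGCC. The 5-letter motif in capitals was searched on both strands and occurred once in the *Bmp6* window, once in the upstream and 2 times in the downstream *Ltbp1* window, and in neither activin subunit window. Of all 32851 promoter windows of the same length, 42.2% held it. The palindrome GTCTAGAC, which does not contain it but can share an end base with it, and GGCGCC were in none of the 5 windows. All promoter windows held them at 0.167% and 9.59%. Promoter entries were matched for 30 members, 38 windows in all. Of these, 9 windows of 8 members held GGCGCC (23.7%), 17 windows of 15 members held the 5-letter motif (44.7%) and 0 held the palindrome. The 9 windows with GGCGCC, itself all G and C, were rich in these bases, from 62.8% in *Id2* to 79.2% in *Ltbp4*. The *Ltbp4* windows that held it overlap and share the same site. The share was not matched for base composition. The windows differed in base composition, with 68.8% G and C in *Bmp6*, 43.2% in *Inhba*, 68.0% in *Inhbb*, and 56.8% and 50.8% in *Ltbp1*, against a median of 52.4% over all windows. The letters are a description of these windows and were not tested against the expression values.

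Among the ligands, *Bmp7*, which codes for a BMP made by many epithelia, had the highest level. It lies at chr2:172868012-172940321 (GRCm38) and had 3473 counts in Ctrl basal and 4719 in CL basal, that is 60.3 and 83 TPM. Its log2 ratio was 0.44 (95% interval 0.37 to 0.50), and 3.61% of the 5592 genes with at least 1000 and under 10000 counts were as far or farther above 0. *Bmp7* made up 75.2% of the summed level of the 5 BMP ligands in Ctrl basal and 83.7% in CL basal.

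The other BMP ligands were low. *Bmp2* had 456 counts in Ctrl basal and 370 in CL basal, a log2 ratio of -0.30 (-0.51 to -0.10). *Bmp4*, a BMP of mesenchyme, had 228 and 207 counts, and its interval (-0.42 to 0.13) held 0. *Bmp6* (chr13:38345716-38499728) had 126 and 66 counts, or 3.65 and 1.94 TPM, a log2 ratio of -0.92 (-1.39 to -0.50) and the lowest among tested members. Of the 6410 genes with 100 to under 1000 counts, 4.06% were as low or lower. *Bmp5* was barely detected, with 6 counts in Ctrl basal and 14 in CL basal. Its log2 ratio of 0.997 stayed under 2-fold, its interval (-0.25 to 2.89) held 0, and 46.7% of its exonic bases overlapped *Gm26903* on the other strand (0 and 10 counts). It was the member nearest below the 2-fold threshold, followed by *Bmp6*.

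Both activin subunit genes were lower in CL basal. *Inhbb* (chr1:119415465-119422248), the activin βB subunit, had 1819 counts in Ctrl basal and 1075 in CL basal, or 29.9 and 17.9 TPM. Its log2 ratio was -0.76 (-0.87 to -0.65), and 1.14% of the genes with 1000 to under 10000 counts were as low or lower. *Inhba* (chr13:16011851-16027211), the βA subunit, had 553 and 351 counts, or 19.5 and 12.5 TPM, with a log2 ratio of -0.66 (-0.86 to -0.46). In its class of 100 to under 1000 counts, 9.58% of genes were as low or lower. Summed over both subunit genes, 2372 counts stood against 1426, a log2 ratio of -0.74 (-0.83 to -0.64, and -0.87 to -0.60 from halved counts). The luminal markers, also lower in CL basal, had a median of -0.92. Pericyte markers were lower too, with a median of -0.71 over 5 tested genes and summed levels of 57.6 TPM in Ctrl basal and 38.8 in CL basal, and *Higd1b* at 0 in CL basal. Their part in the result was not tested, and in bulk RNA fewer cells of a type and less RNA per cell cannot be told apart.

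The TGF-β ligands differed less. *Tgfb1* was level, with 2160 counts in Ctrl basal and 2138 in CL basal and a log2 ratio of -0.02 (-0.11 to 0.07). *Tgfb2* had 2269 and 2806 counts, a log2 ratio of 0.30 (0.22 to 0.38). *Tgfb3* had 1179 and 1366 counts, a log2 ratio of 0.21 (0.10 to 0.32). Per exonic length the 3 genes were similar, from 24.3 to 29.9 TPM in the control library and from 28.6 to 34.3 after CL, so no one TGF-β gene dominated. *Tgfb2* and *Tgfb3* each share under 5% of their exonic bases with a gene on the other strand, *Gm29491* (254 and 495 counts) and *Gm37804* (131 and 163 counts).

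**Figure D2:**
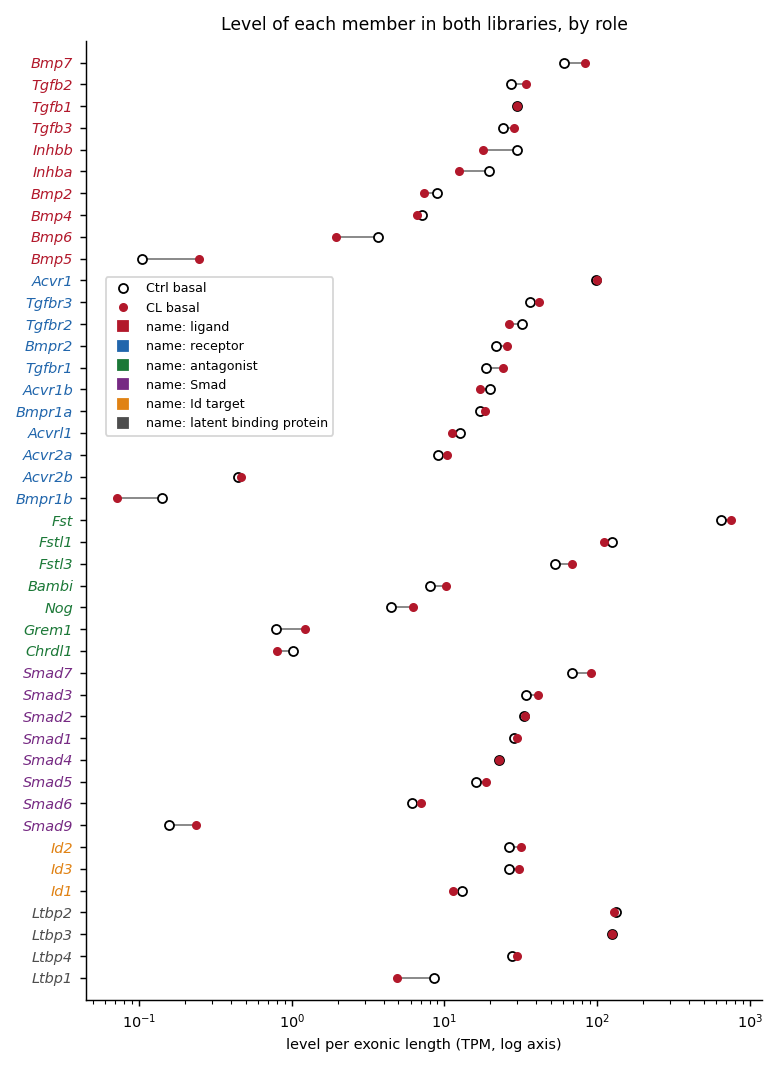
Level per exonic length (TPM, log axis) of the 43 genes in Ctrl basal (open circles) and CL basal (filled circles), 1 library each, grouped and coloured by role and ordered by level within a role. *Fst* stands highest at 647 and 759 TPM, and *Bmpr1b*, *Bmp5*, *Smad9* and *Acvr2b* lie below 1 TPM in both libraries.

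The receptors were close to level. Of 10 tested receptor genes, 8 lay within 0.25 of 0 and 0 reached 1.5-fold, against 71.3% within 0.25 among all genes with at least 1000 counts, a depth that 9 of the 10 had. With 1000 to under 10000 counts, 3.45% of genes were past 1.5-fold in either direction, so these counts were near the background. *Tgfbr1*, the type I receptor for TGF-β, and *Tgfbr2*, its type II partner, went in opposite directions. *Tgfbr1* had 1741 counts in Ctrl basal and 2227 in CL basal, a log2 ratio of 0.35 (0.26 to 0.44). *Tgfbr2* had 3760 and 3073 counts, a log2 ratio of -0.29 (-0.36 to -0.23). Of genes with 1000 to under 10000 counts, 7.4% were as high as *Tgfbr1* or higher and 10.9% as low as *Tgfbr2* or lower. *Tgfbr3*, the co-receptor betaglycan, had 3407 and 3844 counts, a log2 ratio of 0.17 (0.10 to 0.24). The 3 genes summed to 8908 and 9144 counts, and the interval of their summed log2 ratio (-0.01 to 0.08) held 0.

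Type I receptors for BMPs were dominated by *Acvr1* (ALK2), at 98.6 TPM in Ctrl basal and 99.4 in CL basal. It made up 76.7% and 77.0% of the summed level of *Acvr1*, *Bmpr1a*, *Bmpr1b* and *Acvrl1*. Its 6817 and 6784 counts gave a log2 ratio of -0.01 (-0.06 to 0.04). *Bmpr1a* (ALK3) had 1562 and 1648 counts and an interval that held 0 (-0.03 to 0.17). *Acvrl1* (ALK1), a receptor known from endothelium, had 770 and 678 counts, a log2 ratio of -0.19 (-0.34 to -0.04, and -0.40 to 0.03 from halved counts). All 10 endothelial markers were present although CD31+ cells were gated out, and 9 of them were lower in CL basal, with summed levels of 444 TPM in Ctrl basal and 356 in CL basal. Their part in the value of *Acvrl1* was not tested. *Bmpr1b* (ALK6) had 12 counts in Ctrl basal and 6 in CL basal, too few for a fold change here.

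Of the activin and type II receptors, *Bmpr2* had the most counts, 5629 in Ctrl basal and 6562 in CL basal, a log2 ratio of 0.22 (0.17 to 0.27). *Acvr1b* (ALK4), the activin type I receptor, had 1261 and 1063 counts, a log2 ratio of -0.25 (-0.37 to -0.13). *Acvr2a* had 742 and 842 counts (0.18, 0.03 to 0.32), its halved interval held 0 (-0.03 to 0.38), and 7.84% of its exonic bases overlapped *Orc4* on the other strand. *Acvr2b* had 25 and 26 counts, so no difference was detectable at this depth (-0.80 to 0.91). The 4 type II genes (*Tgfbr2*, *Bmpr2*, *Acvr2a* and *Acvr2b*) together stood at 63.5 TPM in Ctrl basal and 63.3 in CL basal.

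Follistatin (*Fst*, chr13:114452262-114458730), which binds and neutralises activins, had the highest level of the 43 genes. It had 21649 counts in Ctrl basal and 25075 in CL basal, or 647 and 759 TPM, a log2 ratio of 0.21 (0.18 to 0.23). Of comparable genes, 25.2% of the 1505 with at least 10000 counts, were as high or higher. *Fstl3*, a follistatin relative that also binds activins, had 1853 and 2370 counts, a log2 ratio of 0.35 (0.26 to 0.44). However, 47.3% of its exonic bases overlapped *Prss57* on the other strand, which had 928 and 1097 counts, so the reads of both genes cannot be told apart if strand was not used. The level of *Fst* stood at 13.1 times the summed level of *Inhba* and *Inhbb* in Ctrl basal and at 25 times in CL basal, a ratio chosen after the values were seen.

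*Fstl1*, a secreted glycoprotein of the same family, was lower in CL basal, with 8824 counts in Ctrl basal, 7759 in CL basal and a log2 ratio of -0.19 (-0.23 to -0.15). The BMP traps *Nog* (noggin), *Grem1* (gremlin) and *Chrdl1* were scarce, at 4.45, 0.791 and 1.01 TPM in Ctrl basal and 6.22, 1.23 and 0.795 in CL basal. *Nog* had 108 and 149 counts (0.45, 0.09 to 0.83). *Grem1* had 47 and 72 counts (0.59, 0.06 to 1.17) and was the member just past 1.5-fold, while *Nog* was the nearest member short of it on the higher side with over 100 counts. The intervals of both from halved counts held 0 (-0.06 to 0.99 for *Nog* and -0.18 to 1.43 for *Grem1*). *Chrdl1* had 98 and 76 counts and an interval that held 0 (-0.82 to 0.08). On the lower side *Inhba* was the member just past 1.5-fold, and *Chrdl1*, at -0.36, was the nearest short of it. *Bambi*, a membrane pseudoreceptor that lacks a kinase domain, had 585 and 728 counts, a log2 ratio of 0.31 (0.15 to 0.47).

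**Figure D3:**
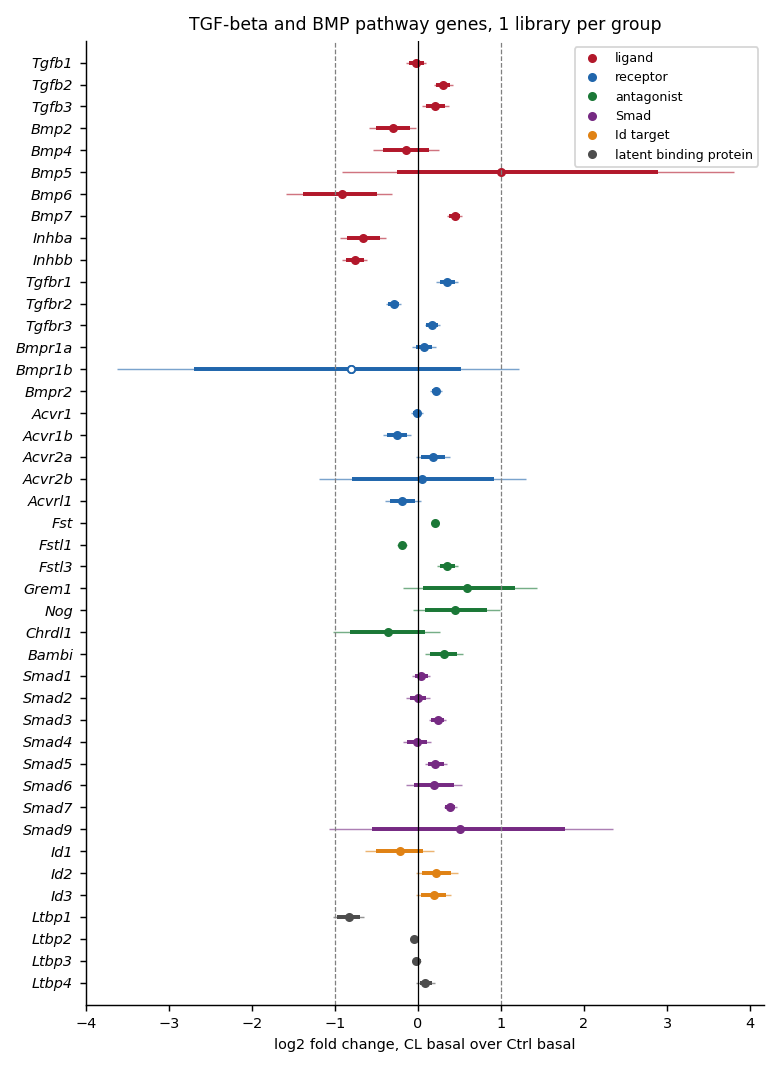
Log2 fold change of CL basal over Ctrl basal for each of the 43 genes, with the exact 95% binomial interval from the counts as deposited (thick bars) and from halved counts (thin bars). Dashed lines mark 2-fold, and the open circle is *Bmpr1b*, under the minimum of counts. *Ltbp1*, *Inhbb*, *Inhba* and *Bmp6* lie left of 0 with thin bars that exclude it.

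Of the 8 Smad genes, 0 reached 1.5-fold, and the median log2 ratio was 0.20. Past 1.5-fold were 3.45% of all genes with 1000 to under 10000 counts and 2.52% above that, the depth of 6 of the 8, and 17.2% and 46.6% in the lower classes that held *Smad6* and *Smad9*. *Smad2* and *Smad4* were the most level, with 1683 and 1204 counts in Ctrl basal and 1685 and 1199 in CL basal. *Smad3* had 2737 and 3236 counts, a log2 ratio of 0.24 (0.16 to 0.31). Among the BMP Smads, *Smad1* had 2567 and 2649 counts (0.04, -0.04 to 0.12) and *Smad5* 1703 and 1977 (0.21, 0.12 to 0.31). *Smad9* had 12 and 18 counts, so no difference was detectable (-0.55 to 1.77).

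The inhibitory Smads block receptor signalling and are induced by it. *Smad7* (chr18:75367529-75395935), which feeds back mainly on TGF-β receptors, had 4460 counts in Ctrl basal and 5849 in CL basal, or 68.9 and 91.5 TPM. Its log2 ratio was 0.39 (0.33 to 0.44), and 4.85% of the 1505 genes with at least 10000 counts were as high or higher. It had the highest level of the Smad genes in each library. *Smad6*, which acts mainly on BMP receptors, had 280 and 320 counts and an interval that held 0 (-0.05 to 0.43).

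The Id genes code for inhibitors of helix-loop-helix factors and are direct BMP targets. They showed no common direction. *Id1* had 218 counts in Ctrl basal and 187 in CL basal, with an interval that held 0 (-0.51 to 0.06). *Id2* had 483 and 566 counts (0.22, 0.05 to 0.40), and *Id3* had 683 and 780 (0.19, 0.04 to 0.34). From halved counts both intervals held 0, at -0.03 to 0.48 for *Id2* and -0.03 to 0.40 for *Id3*. Summed over the 3 genes, 1384 counts stood against 1533, and the halved interval of the log2 ratio was -0.01 to 0.29.

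Of the latent TGF-β binding proteins, *Ltbp1* was the only one past 1.5-fold. *Ltbp1* (chr17:75005568-75392512), the founding member of the family, had 1280 counts in Ctrl basal and 720 in CL basal, or 8.53 and 4.86 TPM. Its log2 ratio was -0.83 (-0.97 to -0.70), and 0.912% of the 5592 genes with 1000 to under 10000 counts were as low or lower. *Ltbp2*, a microfibril protein that does not bind latent TGF-β, had 15488 and 15036 counts (-0.05, -0.08 to -0.01). *Ltbp3* had 9253 and 9179 counts (-0.02, -0.06 to 0.03), and *Ltbp4* had 2565 and 2745 (0.09, 0.02 to 0.17), and its halved interval held 0 (-0.02 to 0.21). *Ltbp1* made up 2.91% of the summed level of the 4 genes in Ctrl basal and 1.68% in CL basal, so that level was nearly equal, 293 and 290 TPM. Fibroblast markers had a median of -0.51, with 9 of 12 lower and none at 0. Their summed levels were 301 TPM in Ctrl basal and 298 in CL basal, a sum carried by *Col6a1* (126 and 159 TPM), which was higher, while *Dcn* (79.0 and 49.6) and *Lum* (4.31 and 1.16) were lower. Their part in the value of *Ltbp1* was not tested.

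Beyond the members, 110 other genes of the pathway were described from lists of ligands, receptors, modulators, intracellular regulators and response genes. Of the 84 with enough counts, 5 were at least 2-fold lower and 1 was at least 2-fold higher, with 4.79% and 2.07% of all tested genes, and the median was -0.02. The other ligands had a median of -0.18 (8 tested of 21), the other receptors and co-receptors 0.04 (5 of 9) and the extracellular modulators 0.00 (19 of 26). The most counted gene of the ligand list, *Bmp1*, a protease that cleaves chordin, had 3586 counts in Ctrl basal and 3233 in CL basal (-0.15, -0.22 to -0.08). *Gdf15* followed with 1012 and 878 (-0.21, -0.34 to -0.08) and *Gdf11* with 627 and 778 (0.31, 0.15 to 0.46). The most counted of the receptor list was *Lrrc32*, which anchors latent TGF-β on cell surfaces, with 4472 and 3436 (-0.38, -0.45 to -0.32), ahead of the endothelial co-receptor *Eng* with 1766 and 1564 (-0.18, -0.28 to -0.08). Among the modulators, *Bgn*, a matrix proteoglycan that binds TGF-β, had 7725 and 7052 (-0.14, -0.18 to -0.09). The 5 lower genes were *Itgb6*, *Htra3*, *Dlx3*, *Gdf9* and *Msx2*. *Itgb6*, a subunit of one of the integrins that activate latent TGF-β, had 227 counts in Ctrl basal and 66 in CL basal, a log2 ratio of -1.76 (-2.20 to -1.38), and 0.390% of the genes with 100 to under 1000 counts were as low or lower. Its partner *Itgav* had 5865 and 5891 counts and was level (-0.05 to 0.06). *Itgb8*, a subunit of another such integrin, had 303 and 367 counts (0.27, 0.05 to 0.50, and -0.05 to 0.59 from halved counts). The homeobox gene *Msx2*, a BMP target, had 170 and 84 counts, a log2 ratio of -1.004 (-1.42 to -0.64), which fell short of 2-fold at -0.967 with upper-quartile scaling.

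The other 3 lower genes had few counts. *Dlx3* had 39 and 17 counts (-2.12 to -0.35) and *Gdf9* 33 and 15 (-2.13 to -0.22), and from halved counts both intervals held 0, at -2.56 to 0.03 and -2.61 to 0.18. *Htra3* had 36 and 14 (-2.37 to -0.44). The 1 higher gene was *Nrros*, which tethers latent TGF-β on myeloid cells, with 32 counts in Ctrl basal and 80 in CL basal, a log2 ratio of 1.27 (0.71 to 1.96). Beside it, macrophage markers had a median of -0.15 over 10 tested genes of 14, with summed levels of 58.2 TPM in Ctrl basal and 61.4 in CL basal. Of the 10, 7 lay below 0 and 3 above, although CD45+ cells were gated out. Among them *Cd68* had 233 and 185 counts, *Mrc1* 168 and 86, and *Csf1r* 64 and 89, and *Fcgr1* was at 0 in Ctrl basal. At least 2-fold higher was *Mpeg1* (28 and 88), and at least 2-fold lower *C1qc* (16 and 6). Their part in the value of *Nrros* was not tested. Lymphocyte markers had a median of -0.10 over 6 tested genes, and adipocyte markers -0.59 over 4.

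Genes known to respond to TGF-β, 4 of which also stood in the lists of modulators or regulators, went both ways. Their 22 tested members had a median of -0.07, and 0 were at least 2-fold lower or higher, near the background of 4.79% and 2.07%. *Ctgf*, chosen after the values were seen, came closest, with 26328 counts in Ctrl basal and 13250 in CL basal, a log2 ratio of -0.99 (-1.02 to -0.96), and it passed 2-fold at -1.03 with total counts. Of the genes with at least 10000 counts, 0.664% were as low or lower. On the other strand, *Gm15270* shares 23.2% of the exonic bases of *Ctgf* and had 12835 and 6380 counts. *Thbs1*, with the most counts of the list, had 88507 and 92280 (0.06, 0.04 to 0.07), followed by the collagen gene *Col4a1* with 70117 and 57887 (-0.28, -0.30 to -0.26) and *Tagln* with 30890 and 31981 (0.05, 0.02 to 0.07). Of the exonic bases of *Tagln*, 62.4% overlap *RP23-228B2.5* on the other strand (30820 and 31877 counts).

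The most counted intracellular regulator was *Pmepa1*, a TGF-β-induced inhibitor of Smad signalling, with 21588 counts in Ctrl basal and 24334 in CL basal (0.17, 0.14 to 0.20). *Skil*, a Smad corepressor that TGF-β induces, had 18983 counts in Ctrl basal and 25851 in CL basal, a log2 ratio of 0.44 (0.41 to 0.47). *Strap*, which binds TGF-β receptors, had 9662 and 10796 (0.16, 0.12 to 0.20). The list of intracellular regulators had a median of 0.14, 0 genes past 2-fold in either direction and 15 of 21 within 0.25 of 0, near the 71.3% of all genes with at least 1000 counts, a depth that 18 of the 21 had. The 13 tested BMP response genes had a median of -0.04. Of these, 2 (*Msx2* and *Dlx3*) were at least 2-fold lower and 0 higher, with 4.79% and 2.07% of all tested genes. The most counted were *Sox9* (12855 and 15300 counts), *Id4* (4212 and 4897) and *Hes1* (3627 and 3075).

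**Figure D4:**
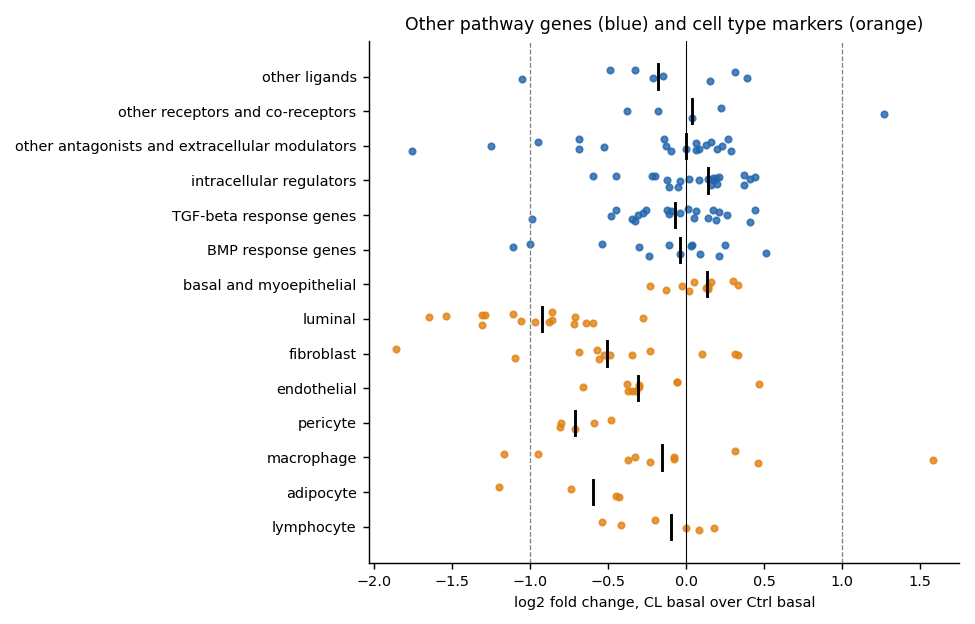
Log2 fold change of CL basal over Ctrl basal of each tested gene (points) in the lists of other pathway genes (blue) and of cell type markers (orange), with the median of each list as a black bar and 2-fold as dashed lines. The medians of the pathway lists lie between -0.18 and 0.14, and the luminal list lies lowest at -0.92.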

How the data were processed

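RNA of sorted mammary basal cells was sequenced on an Illumina HiSeq X 10 by Wuhan Seqhealth. The authors deposited raw counts per gene over exons with the exonic length of each gene, in the column layout of featureCounts, and the labels gave the build as GRCm38. The aligner, annotation release, use of strand and filters were not given in the sources used here. The deposited ratio and log2 ratio columns were not used. Of the members, 35 of 43 had the same start and end in GENCODE M21, and 12 shared exonic bases with another gene.

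Counts were scaled with TMM factors (0.9869 for CL basal, 1.0133 for Ctrl basal) in edgeR 4.0.16 (R 4.3.3). Log2 fold changes used a prior count of 2, and a gene was tested when its counts in the 2 libraries summed to 20 or more. A call was a 2-fold difference, and the 1.5-fold threshold was not planned beforehand. Intervals of 95% are exact (Clopper-Pearson), from scipy 1.17.1. With 1 library per group no spread between replicates could be estimated, and an adjusted p is given only under an assumed spread, as an alternative. Scripts were tested on simulated counts. TPM was computed from the counts and exonic lengths. A count of 0 allows up to 3 counts, 0.0782 CPM in Ctrl basal and 0.0780 in CL basal. Promoters came from RefSeq (GRCm38.p6).

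The members and lists were chosen with earlier results of these data known. All members are described. Of the other pathway lists, genes past 2-fold and up to 3 of each list with the most counts are named. *Ctgf* and *Itgb8* were added after their values were seen. Of the cell type markers, medians or summed levels and a few genes are given, and most markers past 2-fold are not named. Some genes of the lists are not reported here by name. Alternatives were other scalings, prior counts, filters and thresholds, halved counts, removal of a trend on abundance, and assumed spreads between animals.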

Additional observations from a re-analysis of the deposited data

How the results depend on the processing

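No paired analysis was possible because only 1 library stood in a group. At least 2-fold lower were 0 members under each alternative except the 1.5-fold threshold, which gave 4 lower and 2 higher. *Bmp5* crossed 2-fold, so that 1 member was higher, with DESeq2 1.42.0 size factors, the upper quartile, a prior count of 0.5 and the trend on abundance removed. The number of members at least 1.5-fold higher was 1 in place of 2 with total counts, a prior count of 5, at least 100 counts or halved counts. The number at least 1.5-fold lower was 4 or 5 throughout. *Bmp6*, *Inhba*, *Inhbb* and *Ltbp1* stayed between -0.95 and -0.62. Of 375 values of members, 361 were inside the interval of the main analysis, and 14 values of 10 members were outside it. The 375 include the alternative filters, which leave the value of a gene unchanged, so those values could not fall outside. In 7 values of 6 members near 0 the sign changed. Of the other pathway genes, 3 were lower with a prior count of 5 or with halved counts, 2 with at least 100 counts, and 8 lower and 3 higher with no filter. Lower were 6 with total counts, where *Ctgf* (-1.032) joined, and 4 with DESeq2 size factors or the upper quartile, where *Msx2* was lost. With the trend on abundance removed 4 were lower, since *Ctgf* (-1.085) joined and *Msx2* (-0.918) and *Gdf9* (-0.942) were lost. With a prior count of 5 or with halved counts, *Msx2* and *Gdf9* were lost. At 1.5-fold 10 of the 84 were lower and 1 was higher, with 11.7% and 6.33% of all tested genes. With an assumed coefficient of variation between animals of 0.2, edgeR's exact test called 1 lower (*Itgb6*, adjusted p = 0.024) and 0 higher, and with 0.4 it called 0 and 0. It called 0 members at either spread. The share of all tested genes called at these spreads is not given here, so these counts are not set against a background. The median of the other ligands moved to -0.003 with no filter, since more genes entered. Depth limits *Bmp5*, *Bmpr1b*, *Smad9* and *Acvr2b*.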
